A study of Arabidopsis thaliana with 6 samples.

Results

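The NPF (nitrate and peptide transporter) and SWEET (sugar transporter) families were followed in Arabidopsis thaliana roots in which RXR1 was overexpressed or mutated. Members were the probe sets that the platform annotation mapped to a single gene whose symbol or synonym was an NPF, SWEET or ABC (subfamilies B, C and G) name, with 1 probe set per locus. They came to 27 of 13286 named loci, made up of 11 NPF and 16 SWEET genes. The gene table held 27 NPF and 17 SWEET names, and 86 ABC names of these 3 subfamilies. For the ABC genes 0 probe sets were listed under a single gene of that name, so ABC transporters were not analysed here. A further NPF name stood on 1 probe set shared by several genes and was left out by the rule. None of the 27 members had more than 1 probe set, and 0 had a probe set of the kinds marked as shared between genes.

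Each of the 3 genotypes had 2 arrays of root RNA. They were labelled AtRXR1 overexpression, AtRXR1 mutant and WT. Seedlings of all groups were 7 days old and had grown vertically on solid MS medium. The promoter of the overexpression construct, the mutant allele and the accession of the wild type are not given in the sources used here, nor is the number of independent lines. RXR1 is known as a DUF506 protein that holds back root hair elongation. The labels do not say that replicates were separate plants or plates, so the spread between arrays may be technical.

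NPF proteins are proton-coupled carriers. Some import nitrate, while others carry peptides, glucosinolates or the hormones abscisic acid and gibberellin, so the family name does not fix the cargo. SWEET proteins are uniporters that let sugars pass down their gradient. By sequence they fall into 4 clades. Clades I and II mainly pass hexoses, clade III mainly sucrose, and clade IV sits in the vacuolar membrane and passes fructose and other sugars.

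The 6 arrays had medians between 108.3 and 111.3 intensity units. Wild-type replicate 2 stood apart: in the authors' deposited table its correlations with the other 5 arrays were 0.97 to 0.9826, against 0.9938 to 0.9978 among those 5. Some differences from wild type turned on 1 wild-type array, and several are given below against each of the 2. Not every such difference is split in the text. A member given without the split was therefore not always stable across the 2 arrays. The plot of differences from each wild-type array covers all members. RNA quality was read as the distance between 3' and 5' probe sets. For one actin control it came to 1.21 and 1.11 in the overexpressor, 1.29 and 1.19 in the mutant, and 1.39 and 1.40 in wild type. A second actin pair was at 3.18 and 3.02 in the overexpressor, 3.22 and 3.32 in the mutant, and 3.32 and 3.36 in wild type. Both overexpressor arrays were below both wild-type arrays in each actin pair, and the mutant reached wild type in the second pair but not in the first. The ubiquitin pair was at 1.4 and 1.36 in the overexpressor, 1.34 and 1.32 in the mutant, and 1.36 and 1.31 in wild type. For GAPDH the distances were 0.665 and 0.579, 0.669 and 0.359, and 0.576 and 0.571 in the same order. There the overexpressor was not below wild type, so the actin order did not hold across the controls. Of 11 markers of root tissue 2 were measured under a name, the root hair expansins EXPA7 and EXPA18, with log2 signals of 7.58 to 8.15 in the overexpressor, 8.17 to 8.87 in the mutant and 8.40 to 8.82 in wild type. Of 10 leaf markers 1 was measured, the photosystem I subunit gene PSAN, at 7.04 and 6.97 in the overexpressor, 7.37 and 7.61 in the mutant, and 7.81 and 7.65 in wild type. In whole roots, fewer cells of a type and less RNA per cell cannot be told apart.

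Values below are log2 RMA signals, in which 1 unit is a doubling. Signals of different probe sets do not rank the transcripts against each other, but they show which probe sets were dim. A mean signal under 4.6 marked the dimmest 0.25 of all probe sets. It was found in 2 of the 11 NPF members (NPF4.1 and NPF4.2) and in 6 of the 16 SWEET members (SWEET4, SWEET5, SWEET7, SWEET8, SWEET9 and SWEET10). No detection calls were used here, so these 8 were not shown to lie above background.

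The glucosinolate carriers of the NPF family come first. NPF2.10 (GTR1, AT3G47960), a glucosinolate importer, had log2 signals of 7.54 and 7.59 in the overexpressor, 7.56 and 7.73 in the mutant, and 8.01 and 8.06 in wild type. All 4 arrays of the RXR1 lines lay below both wild-type arrays, and the wild-type arrays were close to each other. NPF2.11 (GTR2, AT5G62680), its close relative with the same cargo, had 9.67 and 9.63 in the overexpressor, 9.56 and 9.71 in the mutant, and 9.61 and 9.94 in wild type. Its groups overlapped, and only wild-type replicate 2 stood above the rest.

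The next NPF members are tied to hormones. NPF3.1 (AT1G68570), a gibberellin carrier of the root endodermis, had 6.47 and 6.31 in the overexpressor, 6.12 and 6.10 in the mutant, and 6.24 and 6.36 in wild type. Both mutant arrays lay below the other 4. NPF4.1 (AT3G25260), known to import abscisic acid and gibberellin in yeast, had 4.41 and 4.44 in the overexpressor, 4.48 and 4.21 in the mutant, and 4.71 and 4.44 in wild type. NPF4.2 (AT3G25280), linked to abscisic acid import in the same yeast system, had 4.47 and 4.56 in the overexpressor, 4.29 and 4.32 in the mutant, and 4.64 and 4.5 in wild type. Both of these probe sets were dim, and for NPF4.2 the mutant arrays were the lowest of the 6. NPF4.5 (AT1G27040), another gene of that group, had 5.29 in each overexpressor array, 5.23 and 4.97 in the mutant, and 5.35 and 5.33 in wild type. The overexpressor arrays lay between the mutant and wild-type ones, which did not overlap.

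NPF4.1 and NPF4.2 are also neighbours of the gene the lines were made for. Between NPF4.1 and AT3G25240, the locus known for RXR1, the gene list of the assembly has 1 protein-coding gene, and 4 lie between that locus and NPF4.2. The differences of these 2 genes in each comparison are given below.

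The next 3 members are linked to nitrate. NPF6.2 (AT2G26690), a nitrate carrier of the leaf petiole, had 7.74 and 7.69 in the overexpressor, 8.09 and 8.25 in the mutant, and 8.03 and 8.30 in wild type. Both overexpressor arrays lay below the other 4, while mutant and wild type covered the same range. NPF6.4 (AT3G21670), implicated in nitrate and polyamine transport, had 6.87 and 6.62 in the overexpressor, 7.04 and 6.84 in the mutant, and 7.13 and 6.88 in wild type. NPF4.4 (AT1G33440), tied to nitrate-dependent shoot branching, had 5.66 and 5.68 in the overexpressor, 5.43 and 5.50 in the mutant, and 5.54 and 5.70 in wild type. For NPF4.4 it was the mutant arrays that lay below the other 4. Of the remaining NPF members, NPF4.3 (AT1G59740) had 6.74 and 6.45 in the overexpressor, 6.74 and 6.60 in the mutant, and 6.83 and 6.76 in wild type. NPF5.13 (AT1G72125) had 6.54 in each overexpressor array, 6.47 and 6.56 in the mutant, and 6.58 and 6.79 in wild type. In both of these genes the 4 arrays of the lines lay below the wild-type arrays.

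**Figure D1:**
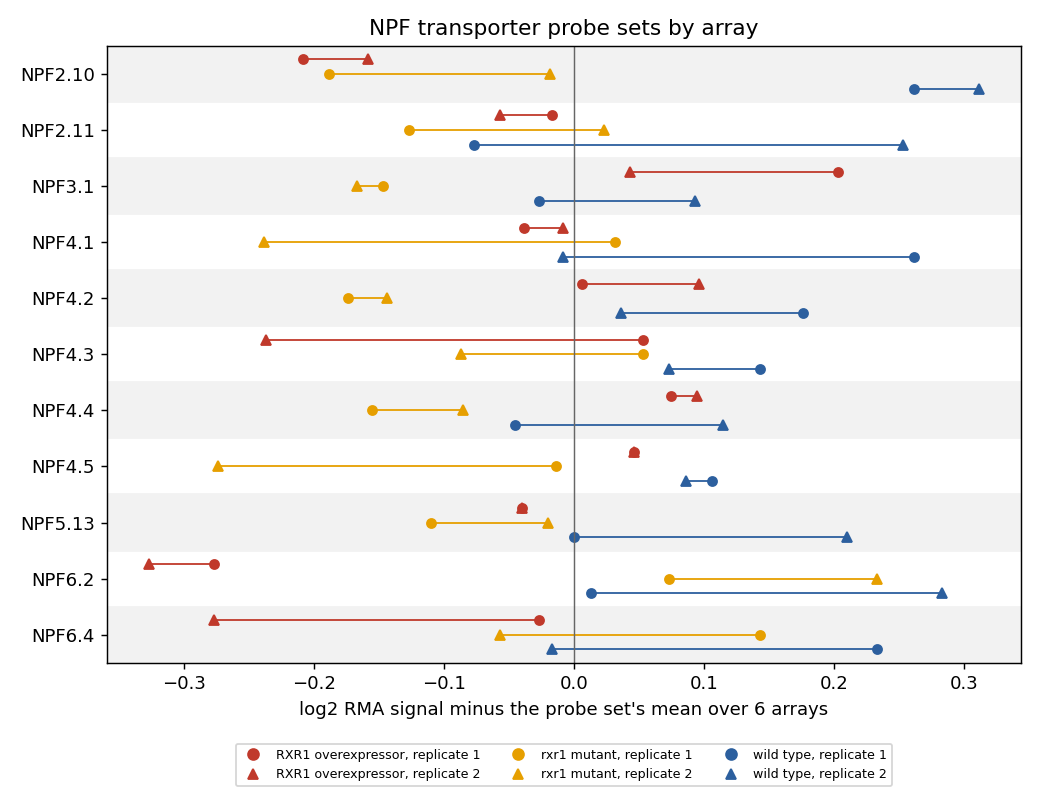
Log2 RMA signal of the 11 NPF probe sets on each of the 6 arrays, as the distance from the probe set's own mean; circles and triangles are replicates 1 and 2, and a line joins the 2 arrays of a genotype. NPF2.10 has both wild-type arrays above the 4 arrays of the lines, and NPF6.2 has both overexpressor arrays below the other 4.

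The SWEET genes are taken by membrane and clade, the vacuolar carriers first. SWEET16 (AT3G16690), a clade IV carrier of the vacuolar membrane, had 8.43 and 8.60 in the overexpressor, 8.56 and 8.78 in the mutant, and 8.63 and 9.22 in wild type. SWEET17 (AT4G15920), the fructose carrier of the same clade, had 9.01 and 9.08 in the overexpressor, 8.87 and 9.01 in the mutant, and 9.14 and 9.56 in wild type. In both genes wild-type replicate 2 was the highest array by a wide margin. SWEET2 (AT3G14770), a clade I carrier that holds glucose in root vacuoles, had 7.49 and 7.43 in the overexpressor, 7.54 and 7.51 in the mutant, and 7.31 and 7.56 in wild type. The wild-type arrays of SWEET2 spanned those of both lines.

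The other clade I members differed from SWEET2. SWEET1 (AT1G21460), a glucose uniporter of the plasma membrane, had 5.71 and 5.75 in the overexpressor, 5.68 and 5.59 in the mutant, and 5.94 and 5.78 in wild type. SWEET3 (AT5G53190) had 6.16 and 6.36 in the overexpressor, 5.89 and 5.90 in the mutant, and 6.14 and 6.45 in wild type. The 3 genotypes of SWEET1 stood in the order mutant, overexpressor, wild type without overlap, whereas in SWEET3 the overexpressor overlapped wild type and the mutant lay below both.

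Clade III holds the sucrose carriers. SWEET11 (AT3G48740), which loads sucrose towards the phloem in leaves, had 7.98 and 8.32 in the overexpressor, 7.33 and 7.71 in the mutant, and 7.71 and 8.08 in wild type. The overexpressor arrays lay above the mutant ones, and wild type overlapped the overexpressor. SWEET13 (AT5G50800), known with SWEET14 for sucrose and gibberellin transport in anthers, had 7.97 and 7.62 in the overexpressor, 7.97 and 7.64 in the mutant, and 7.94 and 7.98 in wild type. SWEET14 (AT4G25010) had 7.08 and 6.51 in the overexpressor, 6.95 and 6.78 in the mutant, and 6.81 in each wild-type array. For both genes the replicates of a line lay further apart than the genotype means. SWEET15 (SAG29, AT5G13170), a sucrose carrier of senescing leaves and seeds, had 5.35 and 5.53 in the overexpressor, 5.47 and 5.26 in the mutant, and 5.61 and 5.25 in wild type. SWEET9 (AT2G39060), the nectary carrier, had 4.5 and 4.13 in the overexpressor, 4.29 and 4.28 in the mutant, and 4.53 and 4.34 in wild type. SWEET10 (AT5G50790), which lies next to SWEET13 with 0 protein-coding genes between them, had 4.32 and 4.57 in the overexpressor, 4.40 and 4.45 in the mutant, and 4.64 and 4.57 in wild type. SWEET9 and SWEET10 were dim, and SWEET15 overlapped in every comparison.

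The 5 clade II members were dim or close to it. SWEET6 (AT1G66770) had 5.12 and 5.29 in the overexpressor, 5.07 and 4.89 in the mutant, and 5.02 and 4.92 in wild type, and was the only one of them with a mean signal above 4.6. SWEET4 (AT3G28007), a hexose carrier, had 4.41 and 4.65 in the overexpressor, 4.47 and 4.33 in the mutant, and 4.43 and 4.34 in wild type. The pollen and tapetum genes SWEET5 (AtVEX1, AT5G62850) and SWEET8 (AT5G40260) are known from anthers, not from roots. SWEET5 had 3.93 and 3.98 in the overexpressor, 3.99 and 4.0 in the mutant, and 4.03 and 3.90 in wild type. SWEET8 had 4.02 and 4.08 in the overexpressor, 4.07 and 4.05 in the mutant, and 4.13 and 3.90 in wild type. Neither separated wild type from a line. SWEET7 (AT4G10850) had 3.77 and 3.71 in the overexpressor, 3.70 and 3.68 in the mutant, and 3.86 and 3.80 in wild type.

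**Figure D2:**
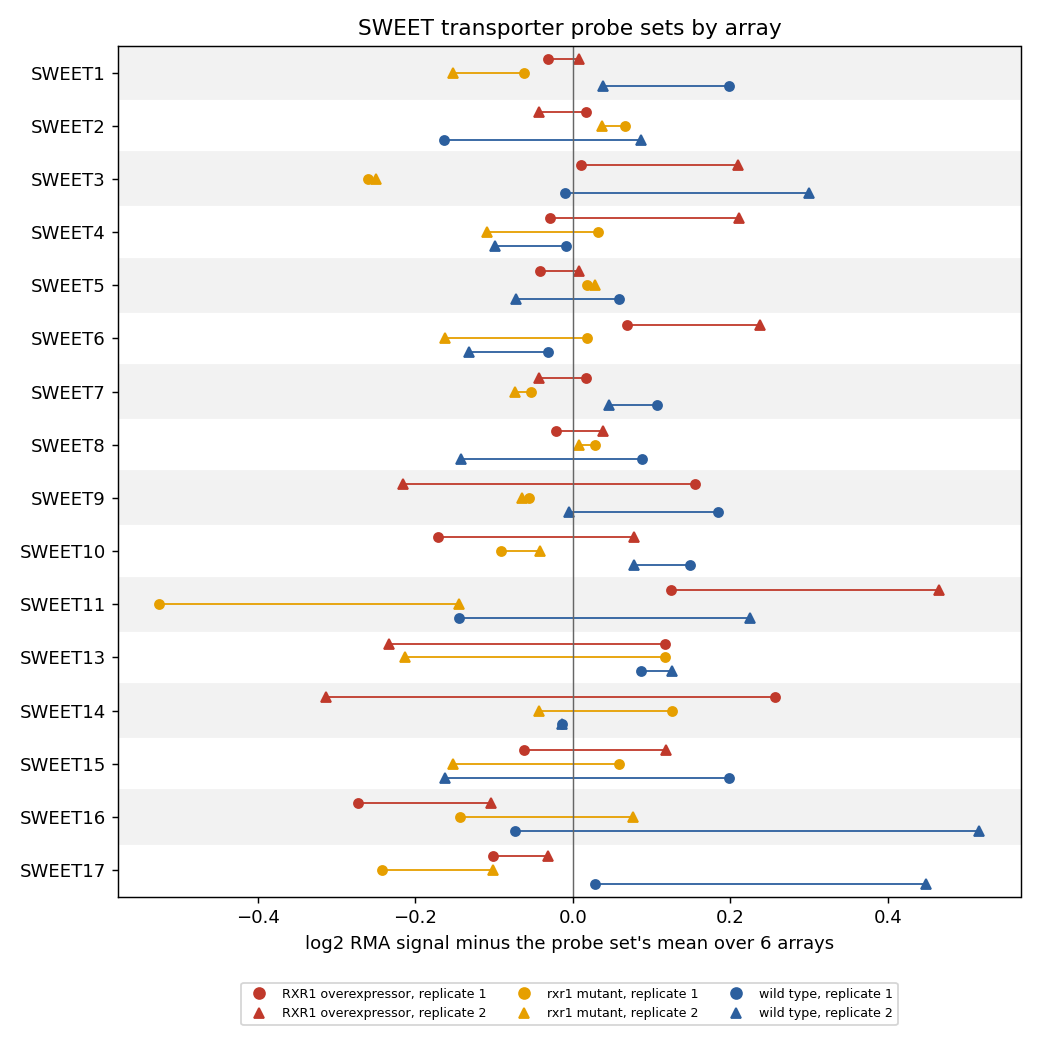
Log2 RMA signal of the 16 SWEET probe sets on each of the 6 arrays, as the distance from the probe set's own mean; circles and triangles are replicates 1 and 2, and a line joins the 2 arrays of a genotype. SWEET11 separates overexpressor from mutant, SWEET3 has both mutant arrays lowest, and in SWEET16 and SWEET17 wild-type replicate 2 is the highest array.

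The first comparison asked how RXR1 overexpression bears on these transporters. The leading values were those of the glucosinolate importer NPF2.10 and the nitrate carrier NPF6.2, both below wild type, but 0 of the 27 members were called. NPF2.10 averaged 7.56 ± 0.0335 in the overexpressor and 8.03 ± 0.0354 in wild type (SD, n = 2 each). The difference was -0.47 ± 0.0944 (SE; 1.39-fold lower, 95% interval -0.69 to -0.25), with adjusted p = 0.171 in limma. NPF6.2 averaged 7.72 ± 0.0363 in the overexpressor and 8.17 ± 0.192 in wild type (SD, n = 2 each), a difference of -0.45 ± 0.117 (interval -0.72 to -0.18, adjusted p = 0.251). In both genes the overexpressor arrays lay below both wild-type arrays. The sign against each wild-type array was thus fixed, and only the size could vary. NPF2.10 was at -0.45 against wild-type replicate 1 and -0.50 against replicate 2, while NPF6.2 was at -0.32 and -0.59. Of all 22746 probe sets 23 were called, or 0.101%. These counts turned on single arrays. Without wild-type replicate 1 the called members were 4 (NPF2.10, NPF6.2, SWEET16 and SWEET17) and the called probe sets 3790. Without wild-type replicate 2 they were 0 and 36, and without any one array of the lines 0 and 0.

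The NPF values cover 11 of the 27 NPF names in the gene table. Among these members 9 of 11 differences from wild type were below 0, with a median of -0.15. Over all probe sets tested 48.4% were below 0, with a median of 0.01. Values ran from -0.47 to 0.09, with NPF3.1 (0.09) and NPF4.4 (0.05) above 0. The arrays did not overlap, with the overexpressor below, in 7 of 11 members, beside 19.8% of all probe sets. In NPF4.1, one of the 7, the gap between the nearest arrays was too small to show at the rounding used here. The 7 also held NPF4.5, at only -0.05 ± 0.106 (adjusted p = 0.89 in limma), and NPF5.13, at -0.15 ± 0.101 (adjusted p = 0.597). Arrays that did not overlap were thus no sign of a wide difference. At an unadjusted p under 0.05, 2 NPF members were lower, beside 6.48% of all probe sets, and 0 were higher, beside 5.36%. Leaving aside the 2 leading genes, NPF6.4 was at -0.27 ± 0.134 (adjusted p = 0.483) and NPF4.3 at -0.20 ± 0.118 (adjusted p = 0.536). NPF6.4 was at -0.39 against wild-type replicate 1 and -0.14 against replicate 2. NPF4.1 and NPF4.2, the neighbours of RXR1, were at -0.15 ± 0.128 and -0.06 ± 0.0931. Single wild-type arrays decided both, with NPF4.1 at -0.28 against replicate 1 and -0.02 against replicate 2, and NPF4.2 at -0.13 and 0.02. Of the values above 0, NPF4.4 changed sign, at 0.13 and -0.03 in the same order. NPF3.1 stayed above 0, at 0.15 and 0.03. Against wild-type replicate 1 alone 8 of 11 were below 0 (median -0.13), and against replicate 2 alone 9 of 11 (median -0.14). The 11 intervals lay between -0.72 and 0.32. The root hair expansin EXPA7 (-0.76 ± 0.0921, adjusted p = 0.0526) and the leaf marker PSAN (-0.72 ± 0.112, adjusted p = 0.0895) were further from 0 than any NPF member. The part of these markers, and of the actin differences, in the NPF values was not tested.

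In the SWEET family 10 of 16 differences of the overexpressor from wild type were below 0, with a median of -0.02. Over all probe sets 48.4% were below 0, with a median of 0.01. The widest values were those of the vacuolar carriers SWEET16, at -0.41 ± 0.189 (adjusted p = 0.453), and SWEET17, at -0.30 ± 0.144 (adjusted p = 0.464). They turned on 1 array: without wild-type replicate 2 SWEET16 was at -0.12 and SWEET17 at -0.09, and without wild-type replicate 1 they were at -0.70 and -0.51. SWEET6 was at 0.24 ± 0.107 (adjusted p = 0.437) and was the only member of either family whose overexpressor arrays both lay above wild type, beside 21.6% of all probe sets. Arrays did not overlap, with the overexpressor below, in 4 of 16 members (SWEET1, SWEET7, SWEET16 and SWEET17), beside 19.8%. SWEET11 was at 0.25 ± 0.184 and overlapped wild type, with 0.44 against wild-type replicate 1 and 0.07 against replicate 2. At an unadjusted p under 0.05, 0 SWEET members were lower, beside 6.48% of all probe sets, and 0 higher, beside 5.36%. The 16 intervals lay between -0.86 and 0.69, so differences of that size were not shown to be absent.

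The second comparison set the rxr1 mutant against the same wild-type arrays, so its values are not independent of those above. Again NPF2.10 led the NPF members and 0 of the 27 were called, beside 1 of 22746 probe sets, or 0.0044%. Without wild-type replicate 1 the called members were 4 (NPF2.10, SWEET3, SWEET16 and SWEET17) and the called probe sets 2743. Without any other single array 0 members and 0 to 7 probe sets were called. NPF2.10 averaged 7.65 ± 0.122 in the mutant and 8.03 ± 0.0354 in wild type (SD, n = 2 each). Its difference was -0.39 ± 0.0944 (SE; interval -0.61 to -0.17, adjusted p = 0.524). It was at -0.36 against wild-type replicate 1 and -0.41 against replicate 2. NPF6.2, the other leading gene of the overexpressor, was at 0.00 ± 0.117 in the mutant (interval -0.27 to 0.27). That value lay between 0.14 against wild-type replicate 1 and -0.14 against replicate 2.

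All 11 NPF differences in the mutant were at or below 0 after rounding, with a median of -0.17, beside 51.6% below 0 and a median of -0.01 over all probe sets. They ran from -0.39 in NPF2.10 to 0.00 in NPF6.2. The abscisic acid group was at -0.26 ± 0.0931 in NPF4.2, -0.24 ± 0.106 in NPF4.5 and -0.23 ± 0.128 in NPF4.1, with adjusted p of 0.524, 0.547 and 0.586. Of these, NPF4.1 overlapped wild type, and it was at -0.36 against wild-type replicate 1 and -0.09 against replicate 2. NPF4.2 was at -0.34 and -0.19, and NPF4.5 at -0.25 and -0.23, in the same order. The gibberellin carrier NPF3.1 was at -0.19 ± 0.0971 (adjusted p = 0.569) and lay below wild type in both arrays, at -0.13 against wild-type replicate 1 and -0.25 against replicate 2. In 7 of 11 members the mutant arrays lay below both wild-type arrays, beside 19% of all probe sets. At an unadjusted p under 0.05, 2 NPF members were lower, NPF2.10 and NPF4.2, beside 4.33% of all probe sets, and 0 were higher, beside 4.99%. Against wild-type replicate 1 alone 9 of 11 were below 0 (median -0.16), and against replicate 2 alone 10 of 11 (median -0.23).

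Among the SWEET genes of the mutant, the fructose carrier SWEET17 and the clade I gene SWEET3 gave the widest differences. SWEET17 was at -0.41 ± 0.144 (interval -0.75 to -0.07, adjusted p = 0.524), but at -0.20 without wild-type replicate 2 and -0.62 without wild-type replicate 1. SWEET3 was at -0.40 ± 0.126 (interval -0.69 to -0.10, adjusted p = 0.524), and at -0.24 and -0.55 in the same order. SWEET11 was at -0.38 ± 0.184 (adjusted p = 0.555), at -0.19 without wild-type replicate 2 and -0.57 without wild-type replicate 1. SWEET1 was at -0.23 ± 0.0946 (adjusted p = 0.533), at -0.30 without wild-type replicate 2 and -0.15 without wild-type replicate 1. SWEET16 was at -0.26 ± 0.189, at 0.03 without wild-type replicate 2 and -0.55 without wild-type replicate 1.

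Over the SWEET family 10 of 16 differences were below 0 (median -0.15), beside 51.6% and a median of -0.01 over all probe sets. By clade, 2 of 3 clade I, 1 of 5 clade II, 5 of 6 clade III and 2 of 2 clade IV members were below 0. The 5 clade II members stayed between -0.14 and 0.04. Arrays did not overlap, with the mutant below, in 7 of 16 members, beside 19% of all probe sets, and with the mutant above in 0, beside 19.1%. The 7 were SWEET1, SWEET3, SWEET11 and SWEET17 of the 10 brighter members, and SWEET7, SWEET9 and SWEET10 of the 6 dim ones. Over all probe sets above the dim range, the mutant lay below in 2865 of 17059. In SWEET11 the gap between the nearest arrays was too small to show at the rounding used here. At an unadjusted p under 0.05, 3 were lower (SWEET1, SWEET3 and SWEET17), beside 4.33% of all probe sets, and 0 higher, beside 4.99%. The 16 intervals lay between -0.81 and 0.47.

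**Figure D3:**
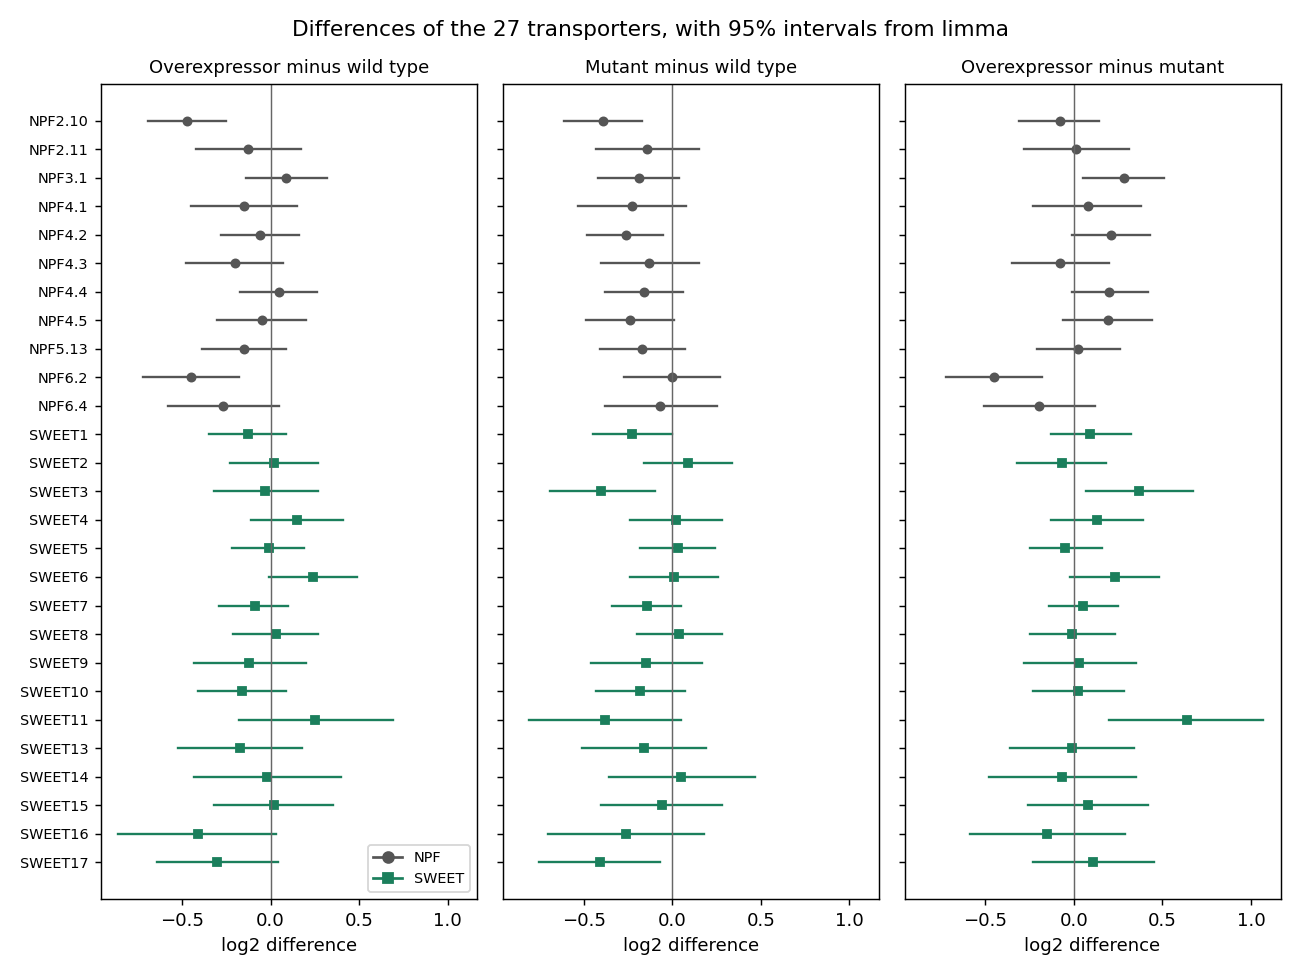
Log2 differences of the 27 members in each of the 3 comparisons, with 95% intervals from limma; circles are NPF genes and squares SWEET genes. NPF2.10 lies below 0 in both lines against wild type, NPF6.2 lies below 0 in the overexpressor against wild type and against the mutant, and SWEET11 has the widest difference between the lines, at 0.64.

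The last comparison was between the 2 lines, and wild type entered it only through the shared estimate of the spread. The sucrose carrier SWEET11 lay above the mutant and the nitrate carrier NPF6.2 below it, though 0 of the 27 members were called, beside 3 of 22746 probe sets, or 0.0132%. Leaving out either wild-type array gave 58 called probe sets and leaving out an array of the lines 0 or 3, with 0 members in each case. SWEET11 averaged 8.15 ± 0.241 in the overexpressor and 7.52 ± 0.268 in the mutant (SD, n = 2 each). Its difference was 0.64 ± 0.184 (SE; 1.55-fold, interval 0.20 to 1.07, adjusted p = 0.704). It ran from 0.45 to 0.82 as single arrays were left out. NPF6.2 averaged 7.72 ± 0.0363 in the overexpressor and 8.17 ± 0.117 in the mutant (SD, n = 2 each), with a difference of -0.45 ± 0.117 (interval -0.72 to -0.18, adjusted p = 0.579) and a range of -0.53 to -0.37 as single arrays were left out.

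SWEET3 was at 0.37 ± 0.126 (adjusted p = 0.847) and the gibberellin carrier NPF3.1 at 0.28 ± 0.0971 (adjusted p = 0.859). In both the 2 overexpressor arrays lay above the 2 mutant arrays. Of the 5 NPF4 genes, NPF4.2 (0.21 ± 0.0931), NPF4.4 (0.20 ± 0.0933) and NPF4.5 (0.19 ± 0.106) were also above the mutant without overlap, each with adjusted p = 0.999. NPF4.1 (0.08 ± 0.128) and NPF4.3 (-0.08 ± 0.118) overlapped the mutant. The glucosinolate importers did not separate the lines: NPF2.10 was at -0.08 ± 0.0944 (interval -0.31 to 0.14) and NPF2.11 at 0.01 ± 0.125 (interval -0.28 to 0.31). SWEET16 (-0.15 ± 0.189) and SWEET17 (0.11 ± 0.144) overlapped too.

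Over the members measured, the medians were near 0 between the lines. They were 0.02 for the 11 NPF genes and 0.04 for the 16 SWEET genes, beside 0.00 over all probe sets. Of the NPF members 4 of 11 and of the SWEET members 6 of 16 were below 0, beside 48.6% of all probe sets. Arrays did not overlap in 4 higher and 1 lower NPF members and in 5 higher and 2 lower SWEET members, beside 20.3% of all probe sets in each direction. At an unadjusted p under 0.05 there were 1 higher and 1 lower NPF member and 2 higher and 0 lower SWEET members, beside 2.31% higher and 2.73% lower over all probe sets. The intervals lay between -0.72 and 0.51 for NPF and between -0.59 and 1.07 for SWEET.

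**Figure D4:**
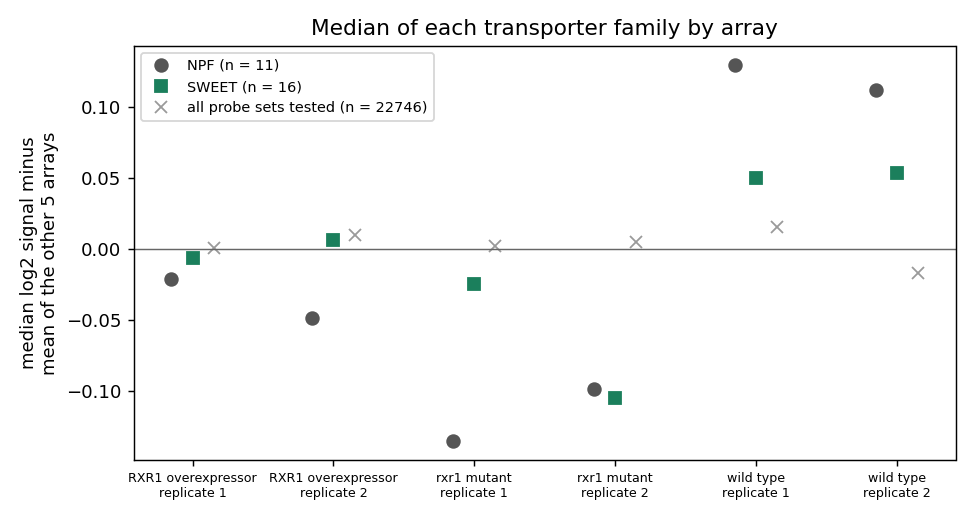
Median over the NPF members, the SWEET members and all probe sets of the log2 signal on each array minus the mean of the other 5 arrays. The NPF medians are -0.02 and -0.05 in the overexpressor, -0.14 and -0.10 in the mutant and 0.13 and 0.11 in wild type, and those of all probe sets stay between -0.02 and 0.02.

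Set against the mean of the other 5 arrays, the NPF median was -0.02 and -0.05 in the overexpressor arrays, -0.14 and -0.10 in the mutant arrays, and 0.13 and 0.11 in the wild-type arrays. The SWEET median was -0.01 and 0.01 in the overexpressor, -0.02 and -0.10 in the mutant, and 0.05 in each wild-type array. Both wild-type arrays thus stood above the 4 others in each family. With the dim members left aside, the NPF median was -0.02 and -0.07 in the overexpressor, -0.14 and -0.07 in the mutant, and 0.02 and 0.14 in wild type. Over the same brighter range the SWEET median was 0.02 and -0.01 in the overexpressor, -0.03 and -0.18 in the mutant, and -0.02 and 0.13 in wild type. Among the 19 brighter members it was therefore wild-type replicate 2 that stood highest. The replicate SD of the NPF members was 0.0928 in the overexpressor, 0.116 in the mutant and 0.139 in wild type, and that of the SWEET members 0.174, 0.119 and 0.186 in the same order. The clade IV genes SWEET16 and SWEET17 had the widest wild-type spread of the clades, at 0.362, against 0.0968 to 0.175 in the other 3.

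**Figure D5:**
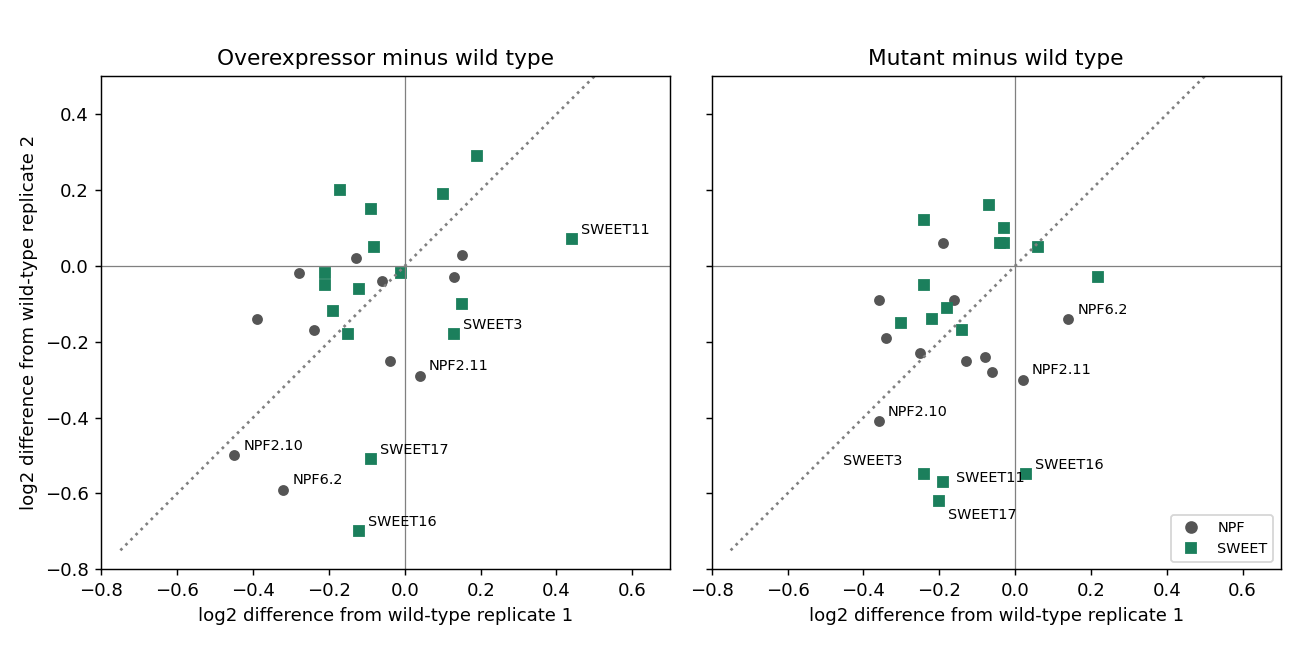
Log2 difference of each member from wild-type replicate 1 (horizontal) and from wild-type replicate 2 (vertical), for the overexpressor on the left and the mutant on the right; the dotted line marks equal differences. NPF2.10 lies near the line in both lines, whereas SWEET16 and SWEET17 lie far below it.

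Other genes of the same pathways were read from lists. Of 37 genes of nitrogen uptake and assimilation 1 was measured under a name, the high-affinity nitrate carrier gene NRT2.5, and 0 were called. It had 4.09 and 4.06 in the overexpressor, 4.02 and 3.81 in the mutant, and 4.10 and 4.01 in wild type, all in the dim range. Of 45 genes of sugar transport and cleavage 10 were measured and 0 called in any comparison. Their medians were -0.01 for the overexpressor and -0.07 for the mutant against wild type, and 0.04 between the lines. The lowest p in that list in the overexpressor was that of AT1G62660, with 11.24 and 11.29 in the overexpressor, 11.49 and 11.58 in the mutant, and 11.49 and 11.76 in wild type. It was at -0.35 ± 0.111 against wild type (adjusted p = 0.32; -0.22 against wild-type replicate 1 and -0.49 against replicate 2) and at -0.27 ± 0.111 against the mutant (adjusted p = 0.967). In the mutant it was AT1G34580, at -0.16 ± 0.088 (adjusted p = 0.577; -0.22 against wild-type replicate 1 and -0.10 against replicate 2). The tonoplast monosaccharide carrier TMT1, which shares the vacuolar membrane with SWEET16 and SWEET17, had 10.09 and 10.18 in the overexpressor, 10.13 in each mutant array, and 10.18 and 10.37 in wild type.

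Coumarins are root exudates, and 3 of 5 genes of their synthesis were measured, with 0 called. F6'H1 (AT3G13610), the enzyme that leads into scopoletin, had 9.83 and 10.09 in the overexpressor, 9.81 and 9.99 in the mutant, and 10.07 and 10.48 in wild type. It was at -0.31 ± 0.158 in the overexpressor (adjusted p = 0.483) and -0.38 ± 0.158 in the mutant (adjusted p = 0.533). Against wild-type replicate 1 AT3G13610 gave -0.11 for the overexpressor and -0.17 for the mutant, and against replicate 2 it gave -0.52 and -0.58. The beta-glucosidase gene BGLU42 had the opposite sign against wild type, at 0.21 ± 0.179 in the overexpressor (adjusted p = 0.678) and 0.28 ± 0.179 in the mutant (adjusted p = 0.615). Against wild-type replicate 1 BGLU42 was at -0.09 and -0.02, and against replicate 2 at 0.51 and 0.59. Between the lines it was at -0.08 ± 0.179 (adjusted p = 0.999). None of the 9 glucosinolate synthesis genes, 21 suberin and endodermal barrier genes and 14 auxin carrier genes of the lists had a probe set with a single listed gene, so the cargo pathway of NPF2.10 was not analysed here.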

How the data were processed

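Root RNA was hybridised to 6 Affymetrix ATH1 arrays, 2 per genotype. The deposited RMA signals are intensity values, not yet in log2; RMA and Affymetrix Expression Console are named in the submitters' processing notes, and versions are not given in the sources used here. A second copy of the signals differed by at most 5e-06. A deposited table gave a correlation score for each pair of arrays. Here log2 was taken with no pseudocount. Of 22810 probe sets, 64 controls were dropped, which left 22746 for the tests. The annotation listed 1 gene for 13513 probe sets, several for 503 and none for 8730, and 13436 matched a locus of the TAIR10.1 gene table, used for names and gene order only. Sequences were not used here.

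Differences were fitted with limma 3.58.1 in R 4.3.3 (lmFit, eBayes; 1 mean per genotype, 3 residual and 4.25 prior degrees of freedom), two-sided, with Benjamini-Hochberg adjustment over all probe sets in each of 3 contrasts and calls at adjusted p under 0.05. Simulated data with known changes were used to check the fit. With 2 arrays a group, the smallest p of an exact permutation test is 0.333. The number of arrays limits the precision. The members and lists were chosen with earlier results of these data known. All NPF and SWEET members are named, and list members if called or with the smallest p in a comparison. TMT1, TMT2 and TMT3 were added after their values were seen. Alternatives were the arrays in the fit, the variance prior, centring, a signal filter, a replicate block, the series matrix values and leaving out each array.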

Additional observations from a re-analysis of the deposited data

How the results depend on the processing

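Of the 27 members, 0 were called in any comparison under the 6 alternatives that kept all arrays of the groups compared. These were the fit on the 4 arrays compared, the trended variance prior, median centring, the signal filter, the replicate block and the series matrix values. The signal filter kept 9 NPF and 10 SWEET members, so the dim members were not tested under it. Without wild-type replicate 1 the lone control is wild-type replicate 2, with its spread taken from the other genotypes. Calls rose over all probe sets as well in that fit, so being called there does not set the members named above apart. Their differences there were -0.50 (NPF2.10), -0.59 (NPF6.2), -0.70 (SWEET16) and -0.51 (SWEET17) in the overexpressor. In the mutant they were -0.41 (NPF2.10), -0.55 (SWEET3), -0.55 (SWEET16) and -0.62 (SWEET17). The family medians moved by less than the replicate SD of an array's family median (0.0916 for NPF, 0.131 for SWEET) under each alternative run. Each member had 1 probe set, so averaging probe sets changed nothing.

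Counts over all probe sets moved more, and the cause was not tested. For the overexpressor against wild type 23 became 0 with the 4 arrays compared, 38 with the trended prior and 167 with the replicate block; leaving out single arrays gave 0 to 3790. For the mutant 1 became 0 with the 4 arrays compared and 2 with the replicate block; leaving out single arrays gave 0 to 2743. Between the lines 3 became 58 with the 4 arrays compared, 1 with median centring and 30 with the replicate block; leaving out single arrays gave 0 to 58. Deviations of same-numbered arrays correlated at 0.0533 (overexpressor and wild type), 0.316 (mutant and wild type) and 0.125 (overexpressor and mutant). The main fit took no account of replicate number, and whether same-numbered arrays share an effect was not tested. With the block, SWEET11 between the lines had adjusted p = 0.0602 in limma, beside 0.704 in the main fit. It is given as the member with the smallest value in that comparison, and NPF6.2 came next at 0.27.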

Other observations

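The difference of SWEET11 between replicate 2 and replicate 1 was 0.34 in the overexpressor, 0.38 in the mutant and 0.37 in wild type. Replicate 2 was thus higher by a similar amount in each genotype. That of NPF6.4 was -0.25, -0.20 and -0.25 in the same order. By contrast SWEET13 was at -0.35 in the overexpressor, -0.33 in the mutant and 0.03 in wild type. The sign was the same in all 3 genotypes in 11 of the 27 members (40.7%), beside 31.9% of all probe sets.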
